A study of Arabidopsis thaliana with 15 samples.

Results

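The genes described here encode the beta-tubulins of Arabidopsis thaliana, TUB1 to TUB9. They were chosen by name: a gene was taken as measured where a probe set was annotated to it and to no other gene. Of the 9 genes, 5 were measured, out of 13356 genes measured in this way in the whole data set, with 1 probe set each, among 13513 such probe sets and 22746 tested in all: TUB1 (AT1G75780, probe set 262978_at), TUB5 (AT1G20010, 261230_at), TUB6 (AT5G12250, 250317_at), TUB7 (AT2G29550, 266295_at) and TUB9 (AT4G20890, 254446_at). TUB2, TUB3, TUB4 and TUB8 had no probe set named by the annotation used and were not analysed here. Beta-tubulins are alike in coding sequence, and how far a probe set also binds the transcript of another family member was not tested.

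Beta-tubulin pairs with alpha-tubulin to form the subunit of microtubules, which build the spindle and phragmoplast of dividing plant cells and the cortical array of growing ones. The cortical array guides the cellulose synthase complexes, and so the direction in which a root cell elongates. Brassinosteroids, of which brassinolide (BL) is the most active, are steroid hormones that promote plant cell elongation and take part in vascular development, and tubulin genes have long been studied among growth-related transcripts.

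RNA came from protoplasts of 6-day-old roots, sorted by the fluorescence of a promoter reporter and measured on an Affymetrix expression array, 1 array per sample. Provascular cells were sorted with pAtHB15:YFP after 2 h on 10 nM BL (ATHB15 BL, 2 arrays) or untreated (ATHB15 control, 3 arrays). Stele cells were sorted with pWOL:GFP untreated (WOL control) and after 0.5, 1, 2 and 4 h on 10 nM BL (2 arrays in each of these 5 groups). A sorted cell is defined only by the promoter that drives its reporter, no mutant allele is named, and a control matched to the BL plates in time is not named either. Nothing in the labels says whether arrays of a group came from separate sets of plants, so each p measures the spread between arrays, which may be technical. Each line has its own reporter and its own sorts, and those cannot be told apart in any comparison between the lines. In sorted bulk RNA, fewer cells of a type and less RNA per cell cannot be told apart.

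The share of probe sets with a present call was 49.5% to 59.6% over the arrays. Along the first principal component, with 49.7% of the variance, the lines lay apart and the ATHB15 arrays were at 59.78 to 107.85. Replicates lay apart on it in 2 WOL groups, at 21.41 for WOL control B and -41.97 for WOL control A, and at -16.21 for WOL BL 4 h B and -98.37 for WOL BL 4 h A. Values that move with the choice among these arrays are given with and without them. Of 19 listed stele and provascular genes 2 were measured, PHV and LHW, and both were present on all 15 arrays. Of 11 listed endodermis and cortex genes 1 was measured, JKD, which was absent on all 15. A single gene without a present call cannot show how pure the sorts were. The promoters' own genes, WOL and ATHB15, had no named probe set, so the reporters could not be checked against them. Of 10 listed epidermis and root hair genes, 2 were measured, the root hair expansins EXPA7 and EXPA18. EXPA7 was present on 2 of 5 ATHB15 arrays and 9 of 10 WOL arrays, and EXPA18 on 1 of 5 ATHB15 arrays and 8 of 10 WOL arrays.

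All 5 beta-tubulin genes were called present on all 15 arrays, and the highest detection p of any was 0.0239, for TUB5. Signal is the deposited intensity, scaled to the same trimmed mean on every array. Differences are on the scale of log2(signal + 16), and a difference was called at an adjusted p under 0.05 from limma. The genes varied unequally over the arrays. On the log2 scale the range was 3.25 for TUB1, 2.00 for TUB7, 1.76 for TUB5, 1.44 for TUB6 and 0.59 for TUB9. Levels of different genes were not set against each other, since each probe set has its own response.

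**Figure D1:**
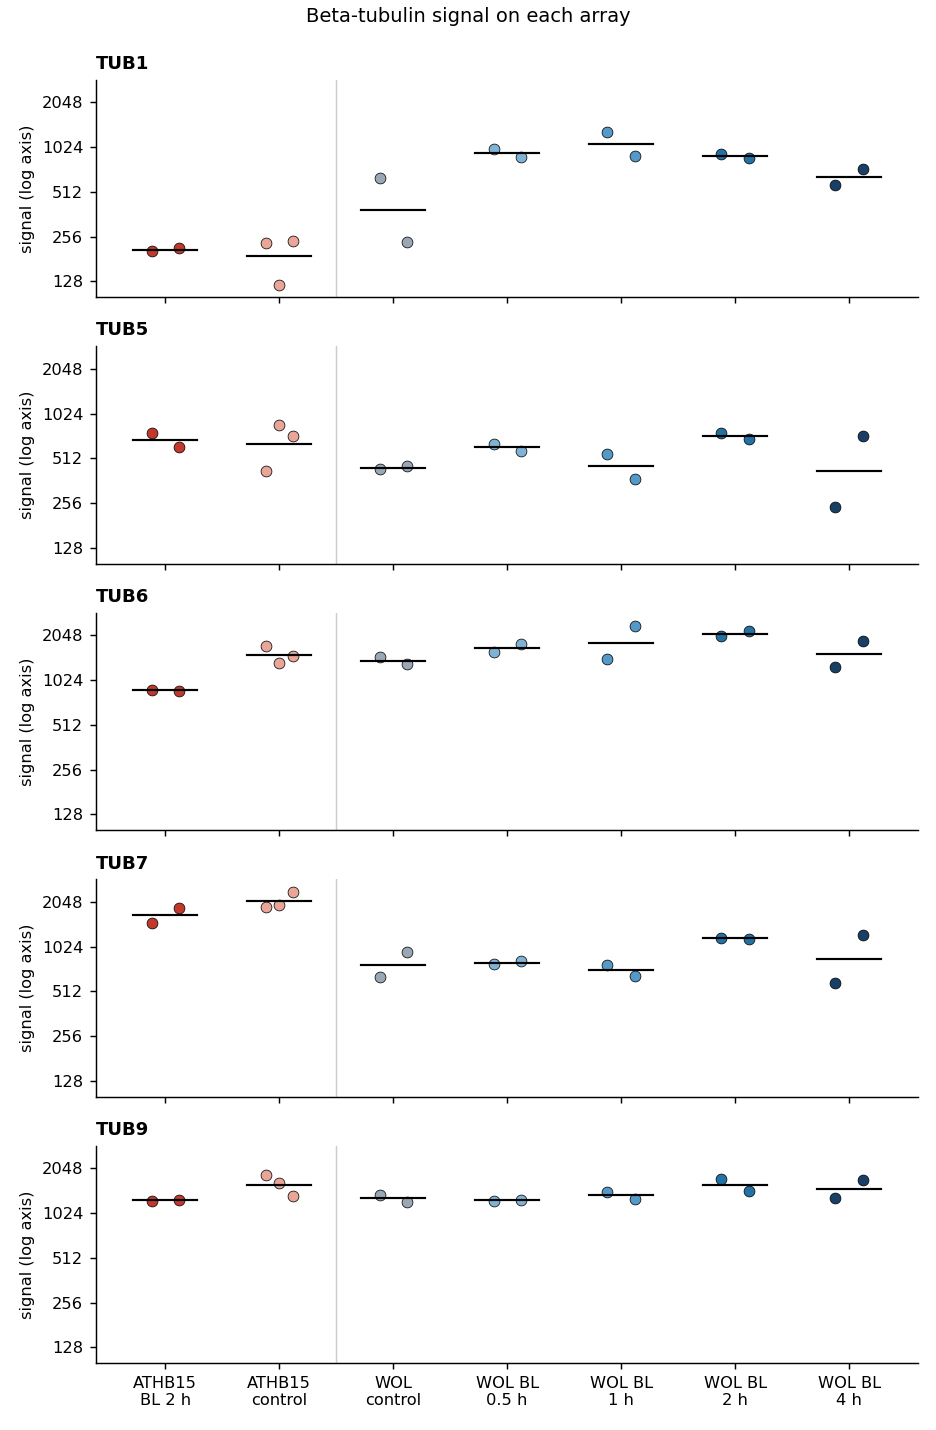
Signal of the 5 measured beta-tubulin genes (log axis) on each of the 15 arrays, by group. Each point is 1 array and each bar is the group mean taken on the log2 scale; TUB1 lay at 121 to 238 in the ATHB15 groups, whereas TUB7 was highest there.

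In WOL cells, with both controls in use, TUB1 gave the largest differences between BL and control of the 5 genes, an order that did not hold at 2 and 4 h without WOL control B. Its signals were 631 and 237 in the WOL control, 998 and 882 at 0.5 h, 1288 and 894 at 1 h, 918 and 861 at 2 h, and 570 and 733 at 4 h. All 6 arrays from 0.5 to 2 h lay above both controls, whereas 1 array at 4 h lay between the 2 controls. At 2 h 12.1% of all probe sets had both BL arrays above both controls, and the share at 0.5 and 1 h was not counted. Relative to control, the log2 difference was 1.24 ± 0.43 (SE) after 0.5 h, 1.43 ± 0.43 after 1 h, 1.16 ± 0.43 after 2 h and 0.71 ± 0.43 after 4 h. The adjusted p was 0.516, 0.659, 0.683 and 0.659 at these times. Over the 4 times the mean difference was 1.14 ± 0.34 (95% interval 0.40 to 1.87). All 8 BL arrays lay above the control mean, with an unadjusted p of 0.00505 and an adjusted p of 0.413, so the difference did not pass the test.

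None of the 5 genes was called at any WOL time, against 0% of all probe sets at each time, 0% for the mean of the 4 times and 0% for limma's F test of any change. Without adjustment, p was under 0.05 for 1505 to 2057 probe sets at a single time, 2270 for the mean and 1301 for the F test. For TUB1 limma's F test gave an unadjusted p of 0.0354 and an adjusted p of 0.857.

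The size of the TUB1 difference rested on which control array was used. Without WOL control B, whose TUB1 signal was 237, the difference was 0.56 after 0.5 h, 0.75 after 1 h, 0.48 after 2 h and 0.03 after 4 h. Without WOL control A the same differences were 1.92, 2.11, 1.84 and 1.39. With control B left out TUB1 was below TUB7 (0.85), TUB5 (0.72) and TUB6 (0.52) at 2 h, and below TUB7 (0.40), TUB9 (0.14) and TUB6 (0.073) at 4 h. Over the 4 times the mean was 0.46 with control B left out and 1.82 with control A left out (adjusted p = 0.0937). The root hair genes differed between these controls as well: EXPA7 and EXPA18 summed to 166 in control B and 599 in control A, and to 1206 to 1245 after 0.5 h, 429 to 1099 after 1 h, 511 to 994 after 2 h and 265 to 648 after 4 h of BL. The 3 measured genes of the 25 listed for dividing cells (the Aurora kinases AUR1, AUR2 and AUR3) summed to 1564 in control B and 919 in control A, and to 626 to 1063 over the BL arrays. BBM, a stem cell niche gene, read 320 in control B and 172 in control A, and 16.6 to 126 over the BL arrays. The UBQ 3' to 5' signal ratio, a measure of RNA quality, was 7.43 in control B and 5.07 in control A, and with it as a covariate the mean TUB1 difference was 0.99 (adjusted p = 0.872). The part of these cell types in the TUB1 values was not tested.

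**Figure D2:**
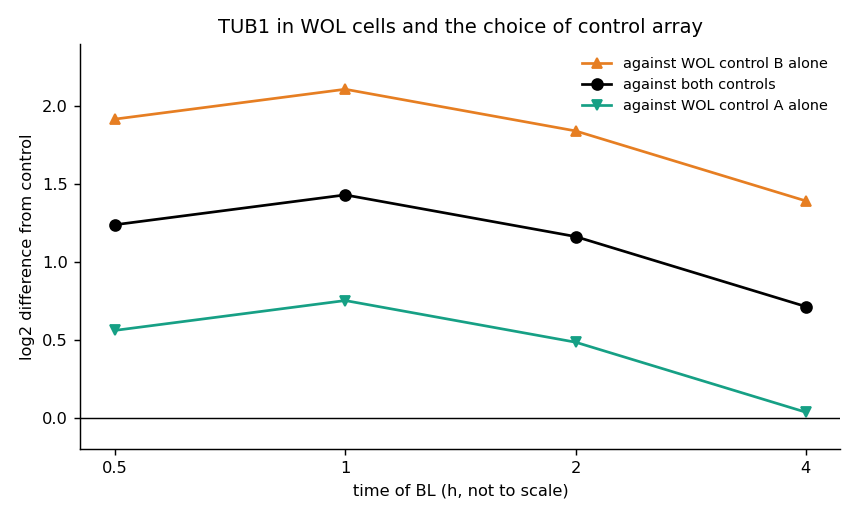
Log2 difference of TUB1 from the WOL control at each BL time (h), against both control arrays or either one alone. The lines keep their distance, with 1.43 at 1 h against both controls, 2.11 against control B alone and 0.75 against control A alone.

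TUB6 had signals of 1455 and 1313 in the WOL control, 1588 and 1780 at 0.5 h, 1416 and 2357 at 1 h, 2022 and 2176 at 2 h, and 1257 and 1865 at 4 h. The 0.5 h and 2 h arrays lay above both controls, and the other times overlapped them. Its log2 difference was 0.28 after 0.5 h, 0.40 after 1 h, 0.60 ± 0.33 after 2 h (adjusted p = 0.799) and 0.15 after 4 h.

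TUB5 read 432 and 454 in the WOL control, 640 and 576 at 0.5 h, 549 and 373 at 1 h, 759 and 689 at 2 h, and 243 and 727 at 4 h. Its arrays were above both controls at 0.5 and 2 h, and at 4 h they spanned the widest range of any group for this gene. Its log2 difference was 0.44 after 0.5 h, 0.03 after 1 h, 0.69 ± 0.46 after 2 h (adjusted p = 0.820) and -0.07 after 4 h.

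TUB7 read 636 and 937 in the WOL control, 777 and 814 at 0.5 h, 770 and 654 at 1 h, 1171 and 1153 at 2 h, and 587 and 1219 at 4 h. Only at 2 h did both arrays lie above both controls. Its log2 difference was 0.04 after 0.5 h, -0.12 after 1 h, 0.58 ± 0.36 after 2 h (adjusted p = 0.809) and 0.13 after 4 h.

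TUB9 was the steadiest member, at 1358 and 1215 in the WOL control, 1244 and 1247 at 0.5 h, 1424 and 1282 at 1 h, 1750 and 1449 at 2 h, and 1302 and 1712 at 4 h. The 2 h arrays were above both controls and the arrays of the other times overlapped them. Its log2 difference ran from -0.04 at 0.5 h to 0.31 ± 0.30 at 2 h (adjusted p = 0.877), with 0.07 at 1 h and 0.21 at 4 h.

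Among these 4 genes the choice of control moved the 2 h difference most for TUB7, which was 0.85 with WOL control B left out and 0.31 with WOL control A left out. It was 0.65 to 0.72 for TUB5, 0.52 to 0.67 for TUB6 and 0.23 to 0.39 for TUB9 with either control left out. The 4 h differences turned on which 4 h array was kept. Once array A at 4 h was left out, and once array B was, they were 0.70 and -0.83 for TUB5, 0.65 and -0.39 for TUB7, 0.43 and -0.14 for TUB6, and 0.41 and 0.019 for TUB9. For TUB1 they were 0.89 and 0.54.

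At 2 h both BL arrays lay above both controls for 5 of 5 genes, a pattern held by 12.1% of all probe sets. The median difference of the 5 was 0.60, beside -0.11 for all probe sets. No gene had all 8 BL arrays above both WOL controls, which 1.9% of all probe sets had.

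In ATHB15 cells the largest difference after 2 h of BL was that of TUB6, whose signals were 884 and 860 in ATHB15 BL, against 1724, 1323 and 1489 in the ATHB15 control. Both BL arrays lay below all 3 controls. The log2 difference was -0.78 ± 0.30 (95% interval -1.42 to -0.13), with an unadjusted p of 0.0226 and an adjusted p of 0.260, so it was not called.

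TUB7 read 1486 and 1861 in ATHB15 BL, against 1901, 1951 and 2400 in the ATHB15 control, and TUB9 read 1232 and 1261 in ATHB15 BL, against 1839, 1621 and 1335 in the ATHB15 control. For both genes the BL arrays were again below all 3 controls. The log2 difference was -0.31 ± 0.33 for TUB7 (adjusted p = 0.759) and -0.34 ± 0.28 for TUB9 (adjusted p = 0.660).

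TUB1 read 204 and 213 in ATHB15 BL, against 231, 121 and 238 in the ATHB15 control, a log2 difference of 0.13 ± 0.40. TUB5 read 757 and 607 in ATHB15 BL, against 418, 860 and 728 in the ATHB15 control, a log2 difference of 0.08 ± 0.42. The groups overlapped for both. The intervals were wide, from -0.72 to 0.98 for TUB1 and from -0.81 to 0.97 for TUB5, so these values do not show an absence of change.

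None of the 5 genes was called in this comparison, in which 1.11% of all probe sets were. The pattern of both BL arrays below all 3 controls held for 3 of 5 genes and for 16.2% of all probe sets. The median of the 5 differences was -0.31, beside -0.03 for all probe sets. The UBQ ratio was 9.07 and 5.99 in ATHB15 BL, against 4.85, 4.53 and 4.01 in the ATHB15 control. With that ratio as a covariate the TUB6 difference was -0.57 (adjusted p = 0.796). It was -0.71 with the GAPDH ratio (adjusted p = 0.448) and -0.74 with the actin ratio (0.400). The part of RNA quality in it was not tested further.

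**Figure D3:**
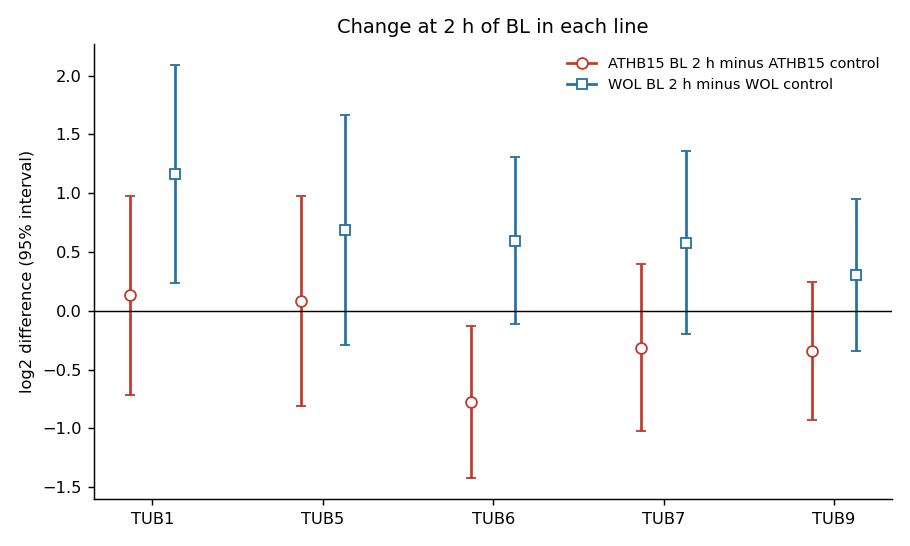
Log2 difference between BL 2 h and control for each beta-tubulin gene, in ATHB15 (circles) and WOL (squares), with 95% intervals; open symbols did not pass the test. TUB6, TUB7 and TUB9 lie below 0 in ATHB15 and above 0 in WOL.

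The 2 h change itself was then compared between the lines. For TUB6 the ATHB15 change minus the WOL change was -1.37 ± 0.45 (95% interval -2.33 to -0.41, unadjusted p = 0.00852, adjusted p = 0.233). It was -1.03 ± 0.59 for TUB1 (adjusted p = 0.523), -0.89 ± 0.49 for TUB7 (0.504), -0.65 ± 0.41 for TUB9 (0.566) and -0.61 ± 0.62 for TUB5 (0.750). All 5 estimates were below 0, and none was called, against 0.127% of all probe sets. TUB6, TUB7 and TUB9 had both BL arrays above the controls in WOL and below them in ATHB15, a pattern of 2.92% of all probe sets. The share with the reverse directions was not counted. With WOL control B left out the TUB1 estimate was -0.35, and with WOL control A left out it was -1.71. Under the same omissions it was -1.17 and -0.62 for TUB7, -1.30 and -1.44 for TUB6, -0.57 and -0.73 for TUB9, and -0.64 and -0.57 for TUB5. The median of the 5 estimates was -0.89, beside 0.09 for all probe sets. The UBQ ratio was 4.90 and 3.79 in WOL BL at 2 h, below the WOL control at 5.07 and 7.43. In ATHB15 BL it was 9.07 and 5.99, above the ATHB15 control at 4.85, 4.53 and 4.01. As a covariate this ratio gave -1.02 for TUB6 (adjusted p = 0.960) and -0.61 for TUB1. It gave -1.04 for TUB7, -0.87 for TUB5 and -0.81 for TUB9. With the GAPDH or the actin ratio TUB6 was at -1.37. The part of RNA quality was not tested further.

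Between the untreated lines TUB7 was higher in provascular cells. Its signal averaged 2084 ± 274 in the ATHB15 control (SD, n = 3) and 787 ± 212 in the WOL control (SD, n = 2), with each ATHB15 array above both WOL arrays. The log2 difference was 1.41 ± 0.33, or 2.65-fold, with an adjusted p of 0.0355 from limma. TUB7 was thus 1 of 5 genes called, where 2.91% of all probe sets were called and 0.229% were called higher in ATHB15. The share of probe sets with no overlap between the control groups was not counted. The call was close to the threshold and was lost without WOL control A (1.13, adjusted p = 0.330) and without WOL control B (1.68, adjusted p = 0.0509). It was lost as well without any 1 of the 3 ATHB15 controls, with adjusted p of 0.0587 to 0.114, and without either WOL BL 0.5 h array (0.0564), which enters through the shared spread. Nor did it hold with an offset of 1 (adjusted p = 0.0920), with only the arrays compared (0.0756), or with the UBQ (0.0985), GAPDH (0.0976) or actin (0.220) ratio as a covariate. The actin 3' to 5' ratio was 28.4 and 48.3 in the WOL control, against 26.8, 13.1 and 12.8 in the ATHB15 control. The UBQ ratio was 5.07 and 7.43 in the WOL control, against 4.85, 4.53 and 4.01 in the ATHB15 control. The GAPDH ratio overlapped between these groups.

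TUB7 also kept apart over all arrays: the 5 ATHB15 arrays, at 1486 to 2400, lay above the 10 WOL arrays, at 587 to 1219. Of all probe sets 4.28% were higher in this way and 5.28% were lower, the second group holding none of the 5 genes. The Aurora kinases summed to 1404 to 2268 over the ATHB15 arrays and to 626 to 1564 over the WOL arrays. Against the WOL control alone the sums did not overlap, at 1833 to 2268 in the ATHB15 control and 919 to 1564 in the WOL control, and the part of dividing cells in the TUB7 values was not tested.

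TUB1 had the opposite sign between the untreated lines, at 231, 121 and 238 in the ATHB15 control, against 631 and 237 in the WOL control. One ATHB15 array lay just above WOL control B, so the groups overlapped. The log2 difference was -0.98 ± 0.40 (adjusted p = 0.245), with -1.66 (adjusted p = 0.0573) once WOL control B was left out and -0.30 once WOL control A was. For the other genes it was 0.52 ± 0.42 for TUB5, 0.30 ± 0.28 for TUB9 and 0.12 ± 0.30 for TUB6, and the arrays of the lines overlapped for each.

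After 2 h of BL the lines differed most in TUB1. Its signal averaged 208 ± 6.58 in ATHB15 BL and 889 ± 39.8 in WOL BL at 2 h (SD, n = 2 each). On the log2 scale the difference was -2.01 ± 0.43, so TUB1 was 4.04-fold lower in ATHB15 BL, with an adjusted p of 0.00787. TUB6 averaged 872 ± 17.6 in ATHB15 BL and 2099 ± 109 in WOL BL (SD, n = 2 each), a log2 difference of -1.25 ± 0.33 or 2.38-fold lower, with an adjusted p of 0.0217. For both genes each ATHB15 array lay below both WOL arrays.

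These were 2 of 5 genes, in a comparison that called 15% of all probe sets and called 8.36% lower in ATHB15. TUB7 was higher on both ATHB15 arrays, with a log2 difference of 0.51 ± 0.36 (adjusted p = 0.401), and TUB9 was lower on both, with -0.35 ± 0.30 (adjusted p = 0.505). TUB5 overlapped between the lines, at -0.09 ± 0.46. For the other genes the lines did not overlap, and how many of all probe sets did likewise was not counted. EXPA7 and EXPA18 summed to 13.7 to 151 in ATHB15 BL and 511 to 994 in WOL BL at 2 h, and both were called lower in ATHB15 BL (adjusted p = 0.0208 for EXPA7 and 0.0181 for EXPA18). BBM, the 1 gene measured of 4 listed for the stem cell niche, read 293 to 310 in ATHB15 BL and at most 106 in WOL BL at 2 h and was called higher in ATHB15 BL (adjusted p = 0.0251). It had a present call on 1 of the 2 WOL arrays. The part of these markers in the TUB1 and TUB6 differences was not tested. The actin 3' to 5' ratio was 26.1 and 24.1 in WOL BL at 2 h, against 20.3 and 5.68 in ATHB15 BL. The UBQ ratio ran the other way, at 4.90 and 3.79 against 9.07 and 5.99, and the GAPDH ratio overlapped. Leaving out WOL BL 2 h A ended the TUB1 call (adjusted p = 0.0533), as did leaving out ATHB15 BL 2 (0.0602) or adding the UBQ ratio as a covariate (0.141). The TUB6 call was lost without any 1 of the 4 arrays compared, with adjusted p of 0.0701 to 0.117, and with the UBQ (0.245), GAPDH (0.0566) or actin (0.117) ratio as a covariate.

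**Figure D4:**
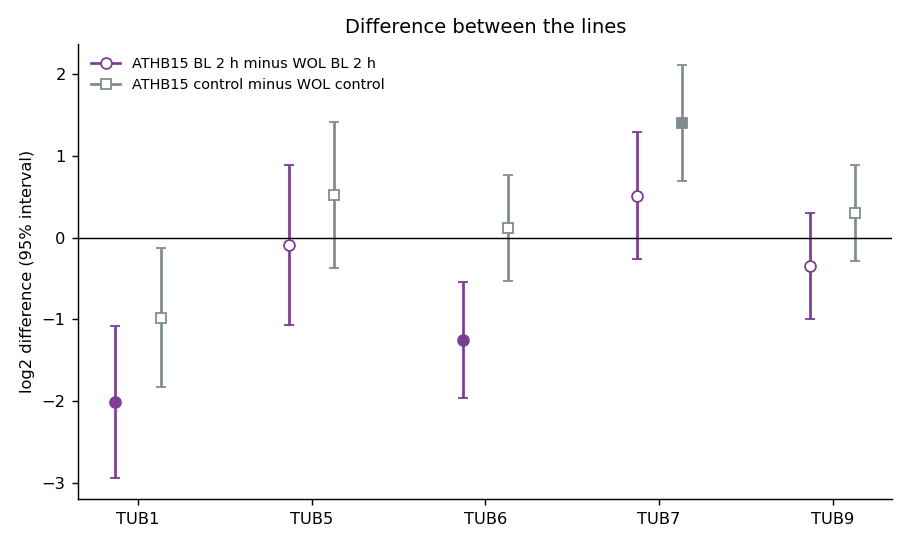
Log2 difference between the lines (ATHB15 minus WOL) for each beta-tubulin gene, after 2 h of BL (circles) and untreated (squares), with 95% intervals. Filled symbols passed the test, namely TUB7 in untreated cells at 1.41, and TUB1 at -2.01 and TUB6 at -1.25 after BL.

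The order of the 7 groups differed among the genes. TUB1 was highest in WOL BL at 1 h, then 0.5 h, 2 h, 4 h and the WOL control, with ATHB15 BL and the ATHB15 control lowest. Its arrays did not overlap between WOL BL at 2 h and 4 h, or between the WOL control and ATHB15 BL, while the other neighbours overlapped. TUB7 was highest in the ATHB15 control, then ATHB15 BL, then WOL BL at 2 h, 3 groups with no overlap between neighbours. WOL BL at 2 h overlapped the next group, WOL BL at 4 h, and the remaining WOL groups overlapped their neighbours as well. For TUB6, WOL BL at 2 h was highest and ATHB15 BL lowest, and ATHB15 BL was the 1 group that did not overlap its neighbour. For TUB5, WOL BL at 2 h was highest and at 4 h lowest, and the only gap was between WOL BL at 0.5 h and at 1 h. For TUB9 every pair of neighbours overlapped. Groups were ordered by their own means, and how many of all probe sets have such gaps was not counted.

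Related genes of the microtubule system were few on the list of named probe sets. Alpha-tubulin was represented by 2 of 6 genes: TUA1, known as a pollen-preferred form, and TUA6, a vegetative one. TUA6 averaged 4849 in ATHB15 BL and 5927 in the ATHB15 control, a log2 difference of -0.24, and 4323 in WOL BL at 2 h and 3099 in the WOL control, a difference of 0.46. TUA1 was at -0.15 in ATHB15, where 1 of 2 BL arrays had a present call, and at 0.06 in WOL. No gene of the 17 listed for gamma-tubulin and nucleation was measured. The folding cofactors, which assemble the alpha and beta subunits, were represented by POR (cofactor C) and PFI (cofactor E), 2 of 7. At 2 h their log2 differences were 0.07 and 0.46 in ATHB15, and -0.12 and -0.41 in WOL.

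Of 42 listed microtubule-associated proteins 3 were measured, and none was called for BL in either line. SPR1, which keeps growth straight by acting at microtubule plus ends, averaged 788 in ATHB15 BL and 1829 in the ATHB15 control, a log2 difference of -1.11 (adjusted p = 0.166). In WOL at 2 h SPR1 differed by 0.29. MAP65-6, of the microtubule bundling MAP65 family, was at -0.54 in ATHB15 and 0.12 in WOL. WDL3, a wave-dampened-like protein that binds microtubules, had an absent call on each ATHB15 BL array and a present call on 1 of 3 ATHB15 controls, so no fold is given for it.

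COB, a membrane-anchored protein needed for the orientation of cellulose microfibrils, was the 1 gene measured of 13 listed for cellulose synthesis. It averaged 268 in ATHB15 BL and 685 in the ATHB15 control, a log2 difference of -1.27 (adjusted p = 0.0759), and 756 in WOL BL at 2 h and 487 in the WOL control, a difference of 0.62. COB was not called for BL in either line. Between the lines after BL, lower calls in ATHB15 went to MAP65-6 at -1.58 (adjusted p = 0.0229), COB at -1.45 (0.0149) and WDL3, which averaged a signal of 21.6 in ATHB15 BL and 345 in WOL BL (0.00343). Higher calls went to AUR2 at 1.04 (0.0444) and AUR3 at 1.60 (0.0132), which had a present call on 1 of 2 WOL BL arrays at 2 h. No related gene was called in any other comparison.

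**Figure D5:**
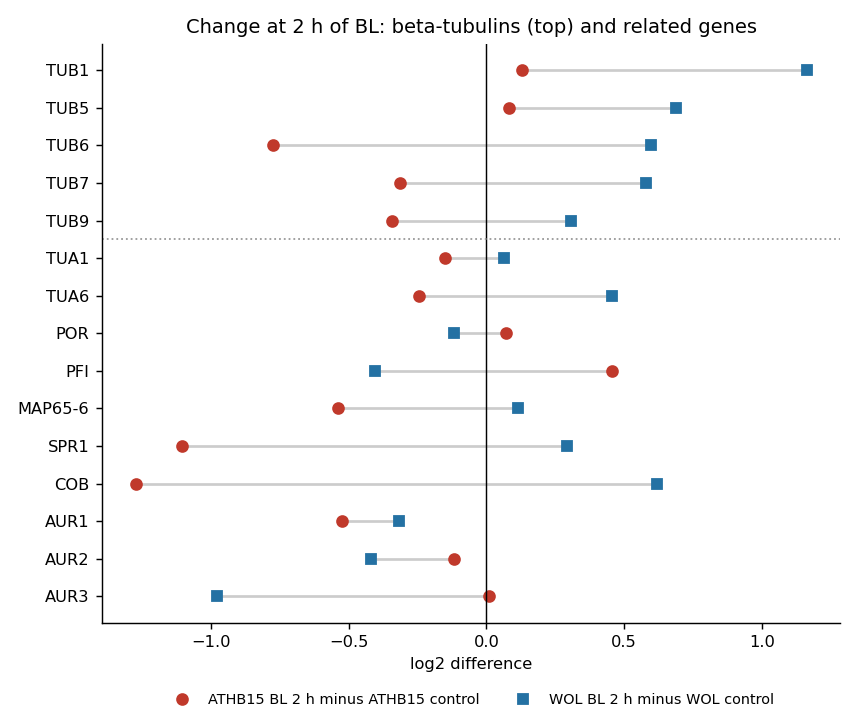
Log2 difference between BL 2 h and control in ATHB15 (circles) and WOL (squares), for the 5 beta-tubulin genes above the dotted line and 10 related genes below it (WDL3 left out). SPR1 and COB lie at -1.11 and -1.27 in ATHB15 and at 0.29 and 0.62 in WOL, and no gene shown passed the test for BL in either line.

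The genes whose signal ran most alike to a beta-tubulin were taken from 5673 candidates, each present on at least 12 arrays, by Pearson's r over all 15 arrays. Since the lines lie apart, r over the 10 WOL arrays is given as well. For TUB1 they were AT4G20460 (r = 0.959 over all arrays and 0.872 in WOL), AT4G17100 (0.954 and 0.900) and the cell wall enzyme gene XTH19 (0.947 and 0.910). XTH19 encodes a xyloglucan endotransglucosylase/hydrolase, which cuts and rejoins xyloglucan chains.

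For TUB5 the most alike were AT1G04680 (r = 0.928 over all arrays and 0.954 in WOL), AT1G65270 (0.910 and 0.955) and AT1G12000 (0.885 and 0.918). For TUB6 they were AT1G12080 (0.905 and 0.791), AT2G20760 (0.890 and 0.839) and AT4G09890 (0.887 and 0.761). For TUB7 they were AT1G26170 (0.933 and 0.761), AT1G45000 (0.932 and 0.844) and AT3G03060 (0.917 and 0.767). TUB9 varied least and had the lowest values, with AT3G50590 (0.827 and 0.763), AT4G23460 (0.826 and 0.797) and AT1G47740 (0.813 and 0.833). No beta-tubulin appeared among the 3 genes most alike to another. These are descriptions over arrays that share their groups and scaling.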

How the data were processed

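Signal intensity was deposited on a linear scale, and 342150 of 342150 signals were identical in both deposited tables. The authors' intensity values had a trimmed mean of 250 on every array (2% removed at each end), as found from the values. Per the file headers, one table also held a detection p-value and a present, marginal or absent call; which software made them is not stated in the labels or headers used here. From 22810 probe sets, 64 control sets were left out. Of the 22746 tested, 13513 were annotated to 1 gene, 503 to several and 8730 to none. No other columns of values were used.

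Log2(signal + 16) was modelled with limma 3.58.1 (R 4.3.3), giving every one of the 7 groups a mean (8 residual and 6.34 prior degrees of freedom). Tests were two-sided and p-values were adjusted by Benjamini-Hochberg over all probe sets. The number of arrays limits the precision. Each measured beta-tubulin was named in every comparison; the most alike genes were the 3 with the highest r. The genes and lists were chosen with earlier results of these data known. Alternatives were offsets of 1 and 64, quantile normalization, median centring, a presence filter, only the arrays compared, RNA quality ratios as covariates, a variance trend, array weights, a replicate block, and leaving out each array. A group left with 1 array was assumed to vary like the others.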

Additional observations from a re-analysis of the deposited data

Results flagged for a closer look

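The 2 h BL change of 3 genes ran in opposite directions in the lines on every array. The ATHB15 BL arrays lay below all ATHB15 controls, and the WOL BL arrays at 2 h lay above both WOL controls. Of all probe sets 2.92% had this joint pattern, 16.2% had its ATHB15 part and 12.1% had its WOL part. The share with both directions reversed was not counted. The ATHB15 change minus the WOL change was -1.37 for TUB6, -0.89 for TUB7 and -0.65 for TUB9 on the log2 scale. The difference was tested as an interaction in limma and did not pass the threshold for any of them, with adjusted p of 0.233 for TUB6, 0.504 for TUB7 and 0.566 for TUB9. The UBQ ratio also moved apart from the controls on the BL arrays, downwards in WOL at 2 h and upwards in ATHB15. With that ratio as a covariate the values were -1.02 for TUB6, -1.04 for TUB7 and -0.81 for TUB9.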

How the results depend on the processing

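Of 45 log2 differences of single genes, 32 kept their sign in every alternative, and of 1205 values under the alternatives 24 had the other sign and 22 lost a call. The cause of a change was not tested. With 1 array left out, the range took in 0 for TUB7 at 0.5 h (-0.23 to 0.31), 1 h (-0.39 to 0.15), 4 h (-0.39 to 0.65) and over the mean of the WOL times (-0.12 to 0.43). It did so for TUB9 at 0.5 h (-0.12 to 0.035) and 1 h (-0.0066 to 0.15), TUB6 at 4 h (-0.14 to 0.43) and TUB5 at 1 h (-0.24 to 0.30) and 4 h (-0.83 to 0.70). In ATHB15 it did so for TUB1 (-0.16 to 0.29) and TUB5 (-0.22 to 0.29), and between the BL-treated lines for TUB5 (-0.25 to 0.065). Median centring gave 0.039 for TUB9 at 0.5 h, 0.027 for TUB5 at 4 h and 0.10 for TUB5 between the BL-treated lines. Covariates for RNA quality gave -0.073 for TUB5 in ATHB15 and -0.011 for TUB6 between the untreated lines (UBQ), -0.039 for TUB5 at 1 h in WOL (GAPDH) and 0.022 for TUB9 at 0.5 h (actin). Array weights gave -0.026 for TUB5 in ATHB15.

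Between the untreated lines the count of called beta-tubulin genes was 1, and it was 0 with an offset of 1, with only the arrays compared, and with the UBQ, GAPDH or actin ratio as a covariate. The adjusted p of TUB7 ran from 0.0129 to 0.330 over all alternatives. Between the BL-treated lines the count was 2, and it was 0 with the UBQ ratio and 1 with the GAPDH or the actin ratio. The adjusted p ran from 0.00331 to 0.141 for TUB1 and from 0.00724 to 0.245 for TUB6. With 1 array left out, the counts were 0 to 1 and 0 to 2. Median centring moved the median of all probe sets from -0.03 to 0.24 between the untreated lines and from 0.02 to 0.21 between the treated ones, and TUB7 (1.68), TUB1 (-1.83) and TUB6 (-1.06) were still called. At 2 h in WOL the same step moved that median from -0.11 to 0.06, with 0.77 for TUB6 and 0.75 for TUB7. Over all probe sets the calls were 253 for BL in ATHB15 (1 to 479 over the alternatives), 29 for the change between lines (0 to 134), 663 between the untreated lines (28 to 913) and 3415 between the BL-treated lines (444 to 4271). For BL in WOL there were 0 calls, and at most 21 in any alternative, at 4 h without WOL BL 4 h B.

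The deviations of arrays with 1 letter or number from their group means were mixed: r was -0.19 to 0.42 in WOL, over 0.1 for 4 of 10 pairs of groups, and -0.04 and 0.06 in ATHB15, so the letters and numbers were not taken as pairs. The replicate block called 0 beta-tubulin genes for BL in either line and in the change between lines. Of 22746 probe sets it called 75 for BL in ATHB15, 0 for BL in WOL and 0 in the change between lines. It gave 1.14 for TUB1 over the WOL times and -0.78 for TUB6 in ATHB15. It was not run for the lines themselves, whose labels do not pair. All 5 genes were called present on every array.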
